A study of Mus musculus with 4 samples.

Results

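The genes described here encode the factors that choose splice sites: serine- and arginine-rich (SR) proteins, heterogeneous nuclear ribonucleoproteins (hnRNPs) and the regulators that work with or against them. The rule goes by name and takes every gene called Srsf with a number, every gene whose name starts with Hnrnp, and Tra2a, Tra2b, Rbfox2, Mbnl1, Mbnl2, Ptbp1, Ptbp2, Ptbp3, Celf1, Celf2, Clk1, Clk4, Srrm1 and Srrm2. The rule found 46 genes among 25177 gene symbols, with 208 of 40739 transcript rows, and each gene was read from its row with the highest mean level. A gene was tested where its geometric mean was at least 10 counts in a library, which 44 of the 46 reached.

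The study measured nuclear RNA of the NIH-3T3 line, which is an established culture of mouse fibroblasts. All cells were grown in puromycin and carried a fluorescently tagged histone (H2B-mCherry), the rtTA3G transactivator and a CDX2 transgene under the TRE3G promoter, which doxycycline switches on. The induced group has 2 libraries, made after 6 h of doxycycline (500 ng/ml), and the control group has 2, made after the same time in solvent alone, from 500000 cells each. The treatment protocol gives the dose as 500 ng per microlitre, so the true dose is uncertain. CDX2 is a homeobox transcription factor of the intestine, the trophectoderm and the posterior embryo. Cdx2 stood at 4.96 CPM (read counts scaled to library size) without and 612 CPM with doxycycline, as computed from the authors' deposited table.

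Pre-mRNA splicing is carried out by the spliceosome, and SR proteins and hnRNPs bind exons and introns to promote or block its assembly at particular sites. SR proteins mostly activate exons from bound enhancer sequences, while many hnRNPs silence them, and the balance between these families sets exon inclusion. MBNL and CELF proteins act in opposite directions on many developmental exons, MBNL proteins favouring the adult pattern in muscle and CELF proteins the embryonic one. Many of these genes keep their own level in check by splicing in a poison exon, an exon with a premature stop codon that sends the transcript to nonsense-mediated decay.

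With doxycycline, 7 of the 44 tested splicing factor genes fell and 0 rose at an adjusted p under 0.05 per the authors' deposited table (limma). Over all 12355 genes tested, 24.7% were called, 11.3% higher and 13.4% lower, while the share of splicing factor genes called was 15.9%. The 3 largest falls were those of Mbnl1, Mbnl2 and Celf2, all regulators of tissue-specific exons. Hnrnpu, Hnrnpa1, Hnrnpr and Srrm2 fell by less. With standard errors multiplied by 2.08, the robust SD of t over all genes tested, 2 of the 7 (Mbnl1 and Mbnl2) stayed called, and with folds centred on ribosomal protein genes 5 fell and 2 rose, in both cases with p adjusted over the genes tested. The other 37 genes did not pass the test. Of the 44, 12 had an unadjusted p under 0.05, beside 4493 of all 12355 genes tested. Of the 44, 33 (75%) lay within 0.15 of 0 on the log2 scale, beside 54.4% of all genes tested. These shares are not matched for level or error. The median log2 CPM was 6.51 for the 44 and 4.06 for all genes tested, with median standard errors of 0.065 and 0.08. The median log2 fold change of the 44 was -0.072 and that of all genes tested was -0.001. The median of the 44 was -0.028 with folds centred on ribosomal protein genes and -0.020 with the trend with level removed. Of the 44, 36 lay below 0, as did 6209 of all 12355 genes tested.

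Values per library were not analysed here, since the authors' deposited table gives 1 mean level and 1 log2 fold change per transcript. Its standard errors follow almost wholly from level and fold (99.2% of their variance), so a gene's own replicates barely enter its p-value. The p-values follow from 1 residual degree of freedom per row, pooled over rows. With 4 libraries the authors' model thus held 3 coefficients, 1 more than a contrast of 2 groups needs, and no label or header says what that term was. Nothing says that the replicates were separate cultures, so the p-values may measure technical spread. No library came from doxycycline-treated cells without the transgene, so effects of the drug and of CDX2 cannot be told apart. Nuclear RNA of many cells was pooled, and fewer cells with a transcript cannot be told apart from less of it per cell. Of 10 fibroblast markers 9 were tested, with a summed level of 7480 CPM without and 6290 CPM with doxycycline, and 6 of them fell. The epithelial markers Krt18 and Cldn4 had no reads and the 2 of 7 that were tested summed to 1.8 CPM in solvent and 0.723 CPM in doxycycline, and 1 of these, Cdh1, fell. The part of such shifts in the results was not tested.

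**Figure D1:**
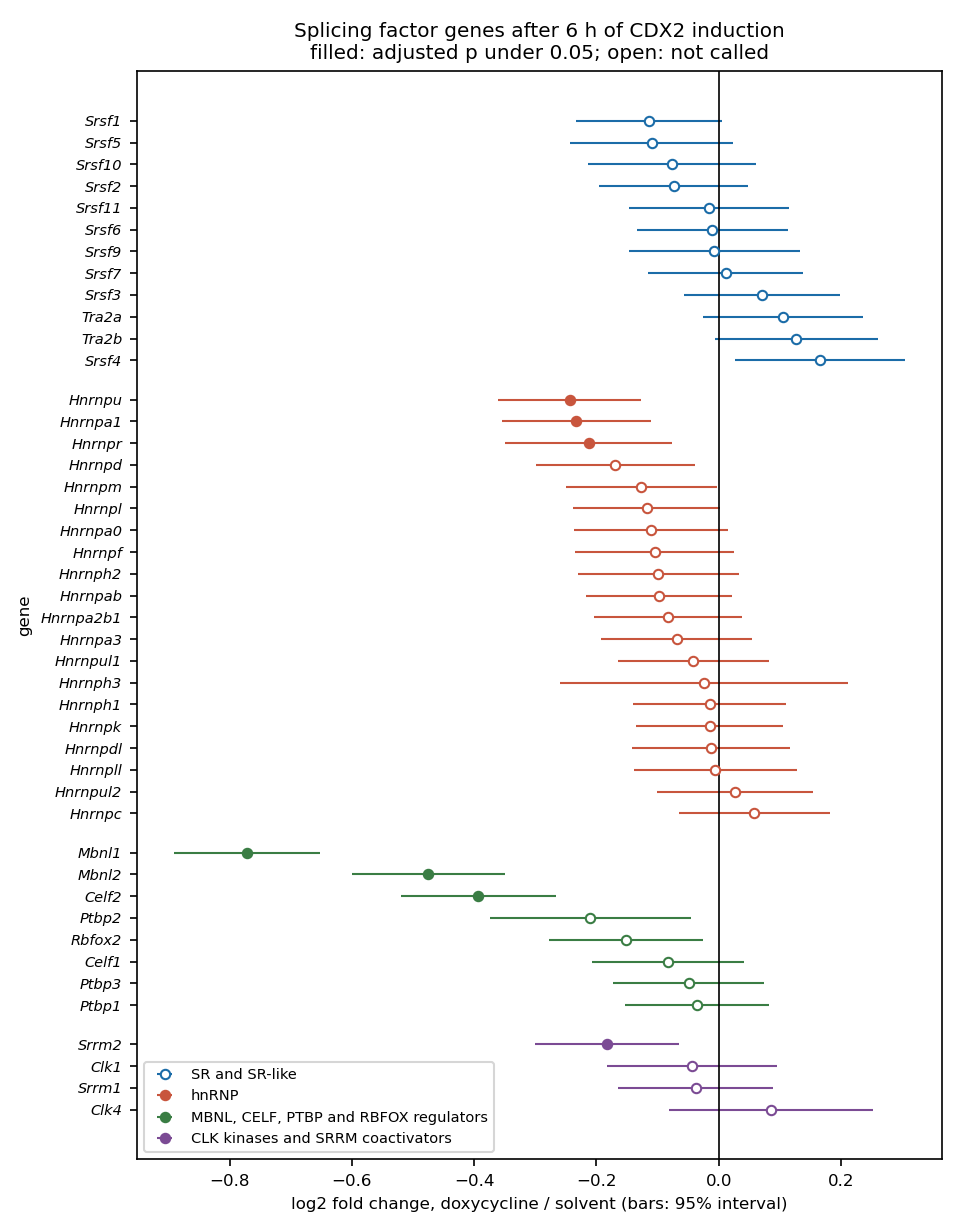
Log2 fold change (doxycycline over solvent) of the 44 tested splicing factor genes, grouped by family. Bars are 95% intervals from the standard errors and filled points are called. Mbnl1, Mbnl2 and Celf2 lie farthest to the left, and all SR and SR-like genes are open points near 0.

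The regulators of tissue-specific exons held the largest changes. All 8 tested genes of the MBNL, CELF, PTBP and RBFOX families had log2 fold changes below 0 (6209 of 12355 over all genes), although Ptbp1 moved to 0.008 with folds centred on ribosomal protein genes and to 0.041 with the trend with level removed, where Ptbp3 also moved to 0.001. Of the 8, 3 were called lower, beside 13.4% of all genes tested and 24.2% of those spanning at least 100 kb, and their median was -0.181. Mbnl1 encodes muscleblind-like 1, the zinc finger protein that is trapped by expanded CUG repeats in myotonic dystrophy. Its row (NM_020007, mm10 chromosome 3, 60501179 to 60629750, plus strand) corresponded to 298 CPM without and 174 CPM with doxycycline, as computed from the authors' deposited table. Mbnl1 thus fell by 41.4%, with a log2 fold change of -0.77 ± 0.061 (± standard error, adjusted p 4.94e-34) per the authors' deposited table. Only 2.07% of the genes tested had a lower log2 fold change there.

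Mbnl2, its paralogue (NM_175341, chromosome 14, 120275669 to 120431698, plus strand), went from 111 to 79.8 CPM, a log2 fold change of -0.48 ± 0.064 (adjusted p 7.40e-12) per the authors' deposited table. Celf2, which encodes an RNA-binding protein of muscle, brain and T cells (NM_001110229, chromosome 2, 6539699 to 7081302, minus strand), went from 91.7 to 69.8 CPM. Its log2 fold change was -0.39 ± 0.065 (adjusted p 5.78e-08) per the authors' deposited table. MBNL and CELF genes, which encode proteins with opposed effects on many exons, were therefore both among the falls.

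Paralogues of these genes differed in size of change. The log2 fold change of Mbnl1 was lower than that of Mbnl2 by a difference of -0.30 (95% interval -0.47 to -0.12), as computed from the authors' deposited table. Celf2 lay below Celf1, which encodes the ubiquitous CUG-binding protein 1, by a difference of -0.31 (-0.49 to -0.13). Celf1 itself stood at -0.08 ± 0.063 (adjusted p 0.531) per the authors' deposited table. Mbnl3, the third muscleblind gene, is outside the naming rule and fell as well (-0.38 ± 0.089, adjusted p 2.15e-04, the authors' deposited table). These differences were among 13 pairs of related genes compared, with independent errors assumed and no test beyond the interval.

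Ptbp1, Ptbp2 and Ptbp3 encode polypyrimidine tract-binding proteins, repressors of neuronal and other alternative exons. Ptbp1, the form of most non-neuronal cells, had a level of 103 CPM per kb of exon, against 4.01 for Ptbp2, the neuronal form, and 18.6 for Ptbp3. Their log2 fold changes per the authors' deposited table were -0.04 ± 0.06, -0.21 ± 0.084 and -0.05 ± 0.063, and 0 of the 3 was called (adjusted p 0.873, 0.0754 and 0.857). Ptbp2 minus Ptbp1 came to -0.17 (-0.38 to 0.03), an interval that holds 0. Rbfox2, which encodes a GCAUG-binding activator and repressor of exons, stood at -0.15 ± 0.064 (adjusted p 0.0973) per the authors' deposited table.

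**Figure D2:**
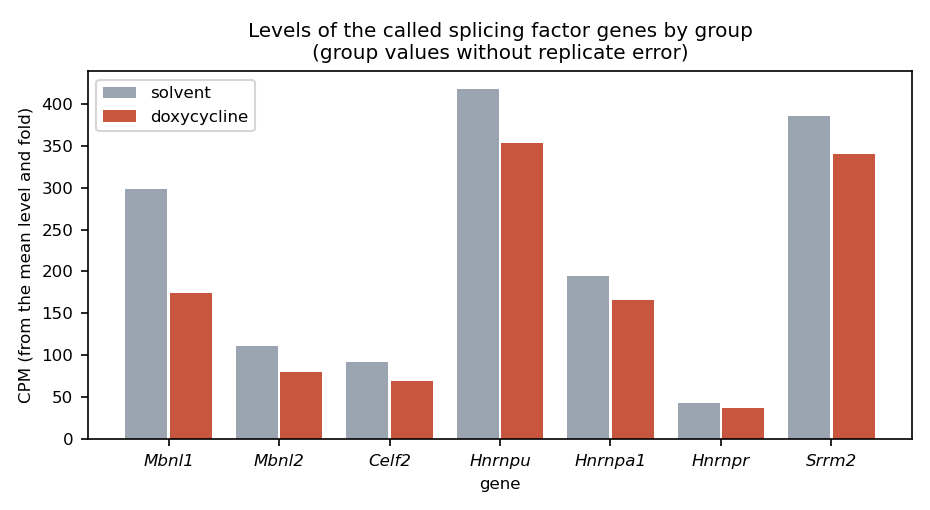
CPM of the 7 called splicing factor genes in solvent (grey) and doxycycline (red), computed from mean level and fold, so no error is drawn. Mbnl1 shows the widest gap, from 298 to 174 CPM, while Hnrnpu stays the most abundant in both groups, at 418 and 353 CPM.

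The sequences before the start sites of Mbnl1, Mbnl2 and Celf2 are shown because these genes changed most. Each is the 250 bases upstream of the start of the row used, 5′ to 3′ on the gene's strand, from RefSeq (GRCm38.p6, the build called mm10). They lie at chr3:60500929-60501178 (plus), chr14:120275419-120275668 (plus) and chr2:7081303-7081552 (minus). Capitals mark ATAAA on either strand (TTTAT on the other), the core of sites known to be bound by CDX proteins.
Mbnl1: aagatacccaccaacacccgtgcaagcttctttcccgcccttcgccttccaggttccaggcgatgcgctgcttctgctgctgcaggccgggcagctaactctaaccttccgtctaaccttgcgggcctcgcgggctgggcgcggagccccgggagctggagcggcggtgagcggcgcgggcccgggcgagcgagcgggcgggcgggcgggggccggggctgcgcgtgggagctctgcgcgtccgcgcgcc
Mbnl2: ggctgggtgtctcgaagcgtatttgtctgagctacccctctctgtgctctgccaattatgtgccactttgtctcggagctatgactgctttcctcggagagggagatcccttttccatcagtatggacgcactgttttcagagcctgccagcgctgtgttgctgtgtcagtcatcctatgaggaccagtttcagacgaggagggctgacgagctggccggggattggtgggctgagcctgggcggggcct
Celf2: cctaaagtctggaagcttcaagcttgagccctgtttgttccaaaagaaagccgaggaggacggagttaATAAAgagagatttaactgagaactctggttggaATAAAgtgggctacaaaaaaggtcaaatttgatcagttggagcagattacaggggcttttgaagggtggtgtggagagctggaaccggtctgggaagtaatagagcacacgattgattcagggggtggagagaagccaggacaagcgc
The Mbnl1 window is a CpG-rich one, with 33 CG dinucleotides and 73.6% G or C, and holds 0 matches. The Mbnl2 window has 10 CG dinucleotides and also 0 matches. The Celf2 window has 5 CG dinucleotides and 2 matches, and is 1 of 5 listed starts of that gene. All 10 Celf2 rows had nearly the same log2 fold change (-0.41 to -0.39), and they share exons and so reads, so the authors' deposited table does not tell which start was in use.

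Promoters were matched for 39 of the 44 tested genes, and 8 of them (20.5%) held ATAAA in the 250 bases. Among all 12305 promoters of tested genes, alternative starts included, the share was 23.8%. The 2 shares differ in unit, since each of the 39 genes gave only the promoter nearest to the start of its row. Of the 7 called genes, 1 (Celf2) held a match. The longer form CATAAA, which contains ATAAA, was in 2 of the 39, those of Hnrnph1 and Srsf7, and in 5.93% of promoters of tested genes. A match describes these letters and is no evidence of binding.

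The hnRNPs package nascent RNA and repress or activate exons. Of 21 genes named Hnrnp, 20 were tested, 3 fell and 0 rose per the authors' deposited table, or 15% called lower, beside 13.4% of all genes tested and 19.5% of those with a mean log2 CPM of 5 to 9. The median log2 fold change was -0.091, with 18 of 20 below 0 (6209 of 12355 over all genes), of which Hnrnpdl, Hnrnph1, Hnrnph3, Hnrnpk, Hnrnpll and Hnrnpul1 moved above 0 with folds centred on ribosomal protein genes. Hnrnpu encodes a scaffold attachment factor that binds both RNA and chromatin, and was the most abundant called gene by CPM. It went from 418 to 353 CPM (NM_016805, chromosome 1, 178326734 to 178337815, minus strand), with a log2 fold change of -0.24 ± 0.06 (adjusted p 6.22e-04) per the authors' deposited table.

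Hnrnpa1, which encodes a silencer of exons bound through UAGGG-like motifs, went from 195 to 166 CPM (NM_001039129, chromosome 15, 103240397 to 103244962, plus strand). Its log2 fold change was -0.23 ± 0.062 (adjusted p 0.00216) per the authors' deposited table. The rows of Gm5643 and Gm10052 overlap it on the same strand with the same log2 fold change (-0.23), so reads of Hnrnpa1 and its near-identical copies are uncertain. Hnrnpr, whose protein binds RNA in the nucleus and in axons, went from 42.8 to 36.9 CPM (NM_028871, chromosome 4, 136310942 to 136345979, plus strand; -0.21 ± 0.07, adjusted p 0.0191, the authors' deposited table). Its close relative Syncrip, also known as hnRNP Q, fell too (-0.28 ± 0.064, adjusted p 1.94e-04, the authors' deposited table).

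Related hnRNP genes did not all follow. Hnrnpul1 and Hnrnpul2, the U-like genes, stood at -0.04 ± 0.063 and 0.03 ± 0.065 per the authors' deposited table, and Hnrnpu lay below them by differences of -0.20 (-0.37 to -0.03) and -0.27 (-0.45 to -0.10). Hnrnpa2b1, the relative of Hnrnpa1, stood at -0.08 ± 0.062 (adjusted p 0.515, the authors' deposited table), and the difference of -0.15 had an interval that holds 0 (-0.32 to 0.02). Hnrnpa0 and Hnrnpa3 of the same family stood at -0.11 ± 0.064 and -0.07 ± 0.063 per the authors' deposited table, neither called. The row of Hnrnpa3 overlaps that of Gm6793 and may share its reads.

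Hnrnpd, which encodes the AU-rich element factor AUF1, came close to the threshold (-0.17 ± 0.066, adjusted p 0.065, the authors' deposited table). Its relatives Hnrnpab and Hnrnpdl stood at -0.10 ± 0.061 and -0.01 ± 0.066 per the authors' deposited table. Hnrnpf, Hnrnph1, Hnrnph2 and Hnrnph3 encode factors that bind runs of G, and their log2 fold changes lay between -0.10 (Hnrnpf) and -0.02 (Hnrnph1 and Hnrnph3) per the authors' deposited table. Hnrnpl and Hnrnpll, CA-repeat binders, stood at -0.12 ± 0.061 and -0.01 ± 0.068 per the authors' deposited table. Hnrnpm, Hnrnpk and Hnrnpc stood at -0.13 ± 0.063, -0.02 ± 0.061 and 0.06 ± 0.063 per the authors' deposited table, with adjusted p 0.2, 0.873 and 0.787.

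Levels per length ranged widely among the 44 genes. Hnrnpl, Srsf2 and Hnrnpab had the highest levels of all 44 genes (115, 107 and 106 CPM per kb of exon), with no spread over libraries to separate such close neighbours. Hnrnph3 had the lowest (2.01 CPM per kb), with 4.36 CPM in solvent and 4.29 CPM in doxycycline, and its row overlaps that of Rufy2 on the other strand (17.2 CPM). The pseudogene Hnrnpa1l2-ps2, also caught by the rule, was not tested, with a mean of 0.0231 CPM.

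The SR and SR-like genes, Srsf1 to Srsf7, Srsf9 to Srsf12, Tra2a and Tra2b, gave no call with the authors' folds and adjustment. Of 13, 12 were tested and 0 were called in either direction per the authors' deposited table (limma), beside 24.7% of all genes tested. Of the 12, 1 (Srsf4) had an unadjusted p under 0.05, beside 4493 of all 12355 genes tested. Srsf12 was the untested one, with no reads in any library. The median of the 12 was -0.009, with 7 below 0 and 5 above (6209 of 12355 below 0 over all genes). With folds centred on ribosomal protein genes, Srsf6, Srsf9 and Srsf11 moved above 0. Srsf4 (adjusted p 0.014) and Tra2b (0.0445) were then called higher, with the limma p adjusted over the genes tested. In that setting 2135 of all 12355 genes were called higher. Of the 12, 11 lay within 0.15 of 0, beside 54.4% of all genes tested, a share not matched for level. The widest 95% intervals of the 12 reached down to -0.24 (Srsf5) and up to 0.31 (Srsf4) on the log2 scale, given these standard errors.

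Srsf1, the first SR protein described as a splicing factor, went from 234 to 216 CPM (-0.11 ± 0.061, adjusted p 0.257, the authors' deposited table). Srsf2, which recognises exonic enhancers and is mutated in myeloid neoplasms, went from 208 to 198 CPM (-0.07 ± 0.062, the authors' deposited table). Srsf3, the smallest SR protein, and Srsf7, its closest relative, went from 87.4 to 91.8 and from 81.6 to 82.2 CPM (0.07 ± 0.065 and 0.01 ± 0.065, the authors' deposited table). Srsf4 went from 31.9 to 35.8 CPM, the highest log2 fold change of the family (0.17 ± 0.071, adjusted p 0.105, the authors' deposited table). The row of Gm12992, on the other strand over the end of Srsf4, had the same log2 fold change (0.17) and 27.2 CPM, and whether these rows share reads was not tested.

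Srsf5, Srsf10, Srsf11, Srsf6 and Srsf9 stood between -0.11 (Srsf5) and -0.01 (Srsf6 and Srsf9) per the authors' deposited table. Srsf10 encodes a splicing repressor that is activated by dephosphorylation, and stood at -0.08 ± 0.07 there. Tra2a and Tra2b, vertebrate homologues of the fly sex determination factor transformer 2, stood at 0.10 ± 0.067 and 0.13 ± 0.068 (adjusted p 0.402 and 0.257, the authors' deposited table). They differed from each other by 0.02 (-0.17 to 0.21).

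Row pairs of 4 SR and SR-like genes differ by the length of 1 annotated poison exon less 2 bases, which lets reads over that exon be estimated. The table gives each exon as 2 bases shorter than its annotation, a relation that held for 96.9% of 7406 pairs of a row and a GENCODE M21 transcript with the same span. Of 8 poison exon matches, these 4 had at least 50 expected counts in each group. For Srsf3 the rows NR_036613 and NM_013663 differ by 454 bases, for an exon of 456. The stretch from the first base of each poison exon to its in-frame stop (capitals) is printed 5′ to 3′ because it shows how soon the reading frame ends. They come from GENCODE M21 transcripts (GRCm38), at chr17:29039454-29039487 (plus), chr17:80205054-80205081 (minus), chr16:22259181-22259261 (minus) and chr6:49252965-49253108 (minus).
Srsf3: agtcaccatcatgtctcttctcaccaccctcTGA
Srsf7: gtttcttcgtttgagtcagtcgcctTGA
Tra2b: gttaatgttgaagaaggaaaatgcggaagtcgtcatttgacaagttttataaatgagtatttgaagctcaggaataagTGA
Tra2a: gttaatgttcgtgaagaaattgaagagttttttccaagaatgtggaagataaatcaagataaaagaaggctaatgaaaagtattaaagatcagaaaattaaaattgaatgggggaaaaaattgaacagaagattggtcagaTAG
The frame closes after 34 bases in Srsf3 and 28 in Srsf7, and after 81 in Tra2b and 144 in Tra2a.

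Read density over the poison exons was compared with that of the row without the exon, in CPM per kb. In Srsf3 the poison exon held 10.8 CPM per kb beside 32.9 for the row without it, or 33%. The shares were 27.4% in Srsf7, 36.2% in Tra2b and 11.2% in Tra2a. Nuclear RNA includes unspliced precursors, whose reads over the exon count too, so these shares are not inclusion levels.

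By group, the share in Srsf3 was 33.6% in solvent (95% interval of counting error 30.4 to 36.8) and 32.4% in doxycycline (29.5 to 35.3). Srsf7 had 28.2% (25.4 to 31.1) and 26.5% (24 to 29.1), and Tra2b had 38.3% (31.4 to 45.1) and 34.1% (28.4 to 39.9). The intervals overlap in these 3 genes. Tra2a had 13.3% (10.8 to 15.9) in solvent and 9.04% (7.15 to 10.9) in doxycycline, on about 104 and 88 counts. Its intervals meet only between 10.8% and 10.9%. All intervals cover counting error only.

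The log2 fold changes of the poison exons themselves, computed from the paired rows of the authors' deposited table, were 0.02 (-0.17 to 0.21) in Srsf3, -0.08 (-0.28 to 0.13) in Srsf7 and -0.03 (-0.39 to 0.32) in Tra2b. In Tra2a the value was -0.45 (-0.86 to -0.04), beside 0.11 for the row without the exon. That interval holds no replicate spread, and no test was made. The Tra2a value was the largest change among the elements read, out of 15 matches of all kinds. It rests on a small difference between rows of 57.4 and 56.3 CPM.

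**Figure D3:**
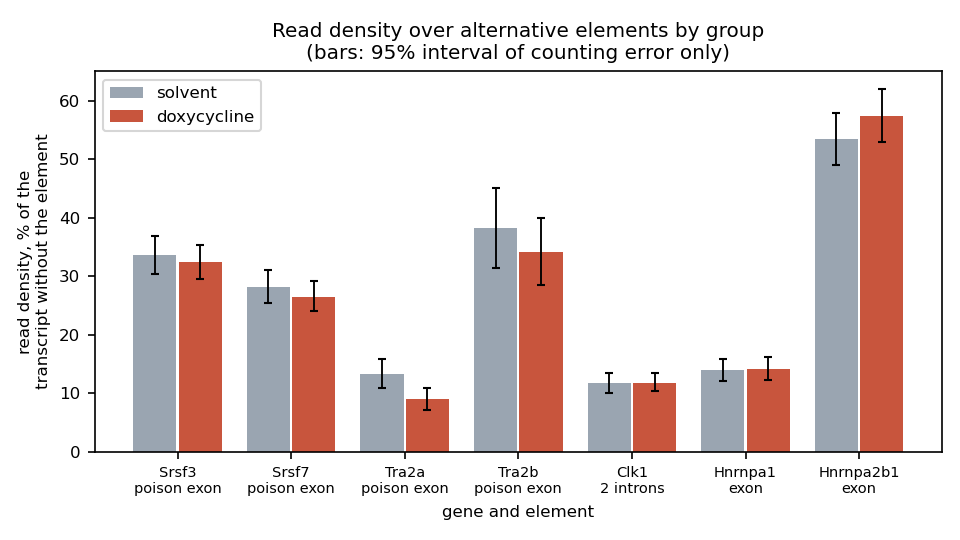
Read density over alternative elements as a percent of the density of the transcript row without the element, in solvent (grey) and doxycycline (red), with 95% intervals of counting error only. The poison exons of Srsf3, Srsf7 and Tra2b lie between 26.5% and 38.3%, and that of Tra2a and the Clk1 introns are at 13.3% or less. The exons of Hnrnpd, Ptbp1 and Clk1 described in the text are not drawn.

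Clk1 and Clk4 encode CLK kinases that phosphorylate SR proteins and release them from nuclear speckles. Clk1 transcripts are known to be held in the nucleus with introns unspliced around an exon that encodes part of the kinase. Clk1 went from 29.6 to 28.7 CPM (-0.04 ± 0.071, adjusted p 0.873) and Clk4 from 11.5 to 12.2 CPM (0.09 ± 0.085, adjusted p 0.73) per the authors' deposited table. The rows NR_027854 and NM_001042634 of Clk1 differ by 1262 bases, for 2 introns of 1258 bases together on either side of its 91-base exon (chr1:58419734-58421082). The excess comes from the 2 bases left out per exon, since keeping these introns joins exons. These introns held 1.76 CPM per kb, 11.8% of the density of the spliced row, and the share was 11.8% in both groups. Over the exon between them, which decay transcripts skip, the density was 111% of the rest of the transcript.

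Matching rows also covered exons of 3 hnRNP genes and Ptbp1 that some annotated decay transcripts skip. The rows without these exons are themselves coding transcripts in RefSeq, so the densities do not separate decay forms from shorter coding forms. The 159-base exon of Hnrnpa1 that makes its longer coding form had 14% of the density of the rest, with 13.9% in solvent and 14.1% in doxycycline. The 120-base exon of Hnrnpa2b1 had 55.4%, with 53.4% and 57.4%, and the 78-base exon of Ptbp1 had 94.3%, with 93.4% and 95.2%. The 147-base exon of Hnrnpd had 371% of the density of the rest, with 374% and 368%. Coverage was thus uneven along that row. Shares of this kind, here and for the poison exons and Clk1, are therefore not inclusion levels. The intervals of counting error of the groups overlap for all 4 exons.

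Srrm1 and Srrm2 encode serine- and arginine-rich matrix proteins that bridge splicing complexes, and SRRM2 is a core component of nuclear speckles. Srrm2 (NM_001368687, chromosome 17, 23803225 to 23824741, plus strand) went from 386 to 340 CPM, and its log2 fold change was -0.18 ± 0.06 (adjusted p 0.0185) per the authors' deposited table. Srrm1 stood at -0.04 ± 0.065 (adjusted p 0.873, the authors' deposited table). The difference between them, -0.14 (-0.32 to 0.03), had an interval that holds 0.

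The called falls can be set against level and gene span, whose Spearman correlations with log2 fold change over all genes tested were -0.13 and -0.09, as descriptions. Of the 44 genes, 40 had a mean log2 CPM of 5 to 9, and 7 of these fell while 0 rose. Among all 4022 genes of that level 19.5% fell and 7.46% rose, with a median log2 fold change of -0.037, beside -0.075 for the 40. These bounds were chosen after the values were seen.

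Mbnl1, Mbnl2, Celf2 and Rbfox2 are the 4 of the 44 that span at least 100 kb, and 3 of the 4 fell. Among all 1324 tested genes of that span 24.2% fell, with a median of -0.068. The 40 shorter genes had a median of -0.047. Over the 44 genes, the Pearson correlation of log2 fold change with log10 span was -0.44 and Spearman's rho was -0.20, as a description across genes that share the same 4 libraries. Without the 4 longest the correlation was 0.07, so it rests on them. Spearman's rho of log2 fold change with level was -0.35 over the 44 genes, and -0.35 without these 4 too.

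**Figure D4:**
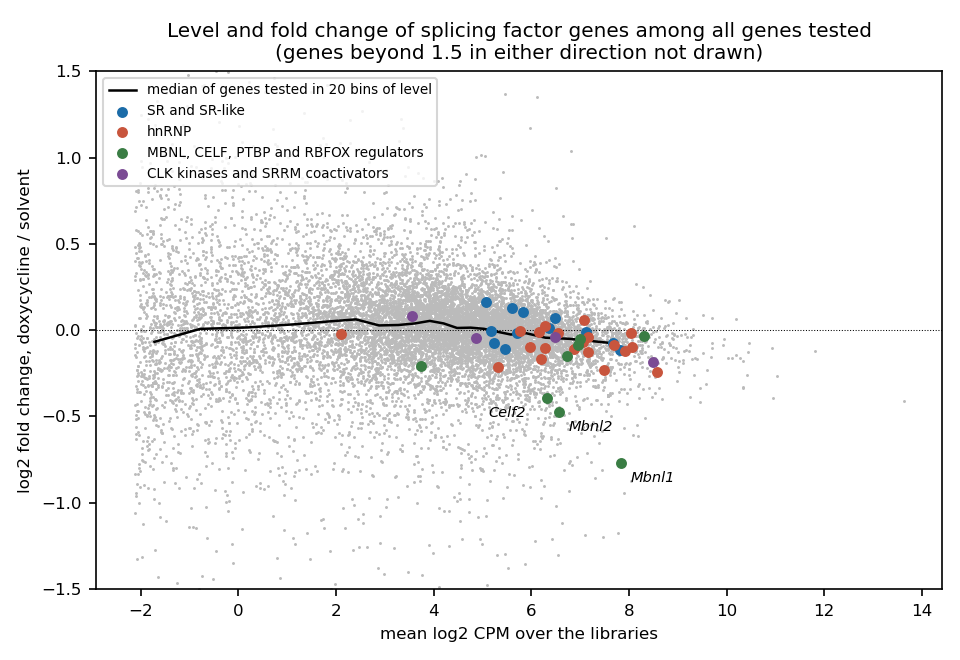
Log2 fold change against mean log2 CPM for all genes tested (grey) and the splicing factor genes (colours by family), with the median in 20 bins of level as a line. The line falls below 0 at high levels, where most splicing factor genes lie, and Mbnl1, Mbnl2 and Celf2 sit well beneath it.

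Other genes of the splicing pathway were read from lists of genes by function, beside 24.7% called over all genes. Of 15 SR protein kinases and partners, 1 rose and 1 fell per the authors' deposited table. Clk3, another CLK kinase gene, rose (0.36 ± 0.071, adjusted p 8.28e-06) and Srpk1, the main cytoplasmic SR protein kinase, fell (-0.19 ± 0.065, adjusted p 0.0234) per the authors' deposited table. Srpk2, Clk2 and the SR protein importer Tnpo3 stood at -0.12 ± 0.072, 0.12 ± 0.08 and -0.11 ± 0.065, none called, and Dyrk1b at -0.65 ± 0.25 (adjusted p 0.0514), per the authors' deposited table.

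Of 34 U1, U2 and SF3 protein genes, 0 rose and 2 fell per the authors' deposited table: Sf3b3 (-0.27 ± 0.062), part of the branch-point complex, and the U1-associated Luc7l (-0.23 ± 0.071), while the helicase gene Dhx15 stood at -0.13 ± 0.063 and was not called. Of 40 genes of the tri-snRNP and PRP19 complexes, 2 rose (Bud31 0.26 ± 0.07, Prpf38a 0.22 ± 0.074) and 3 fell (Prpf8 -0.21 ± 0.059, Snrnp200 -0.21 ± 0.062, Aqr -0.20 ± 0.067) per the authors' deposited table. Prpf8 and Snrnp200 encode the central scaffold and a helicase of the U5 particle. Of 27 speckle and paraspeckle genes, 0 rose and 2 fell per the authors' deposited table, Scaf8 (-0.28 ± 0.067) and the paraspeckle gene Sfpq (-0.20 ± 0.062), with Scaf11 at -0.13 ± 0.062 and not called.

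Of 38 tested hnRNP-like and other RNA-binding regulators, 0 rose and 6 fell per the authors' deposited table. Rbms1 (-0.36 ± 0.065), Syncrip and Tardbp, which encodes TDP-43 (-0.22 ± 0.064), had the smallest p. Of 21 regulators of tissue-specific exons outside the rule, 10 were tested, 2 rose and 3 fell per the authors' deposited table. Celf4 (-0.57 ± 0.1), Mbnl3 and the neuronal factor gene Nova1 (-0.34 ± 0.1) fell, while Nova2 (0.50 ± 0.15) and Rbm38 (0.24 ± 0.077) rose, at means of 20.6 CPM or less per the authors' deposited table. The nonsense-mediated decay genes, whose products degrade poison exon transcripts, had 0 calls among 20 per the authors' deposited table (limma), with Upf1 at -0.05 ± 0.064. Of the 20, 6 had an unadjusted p under 0.05, beside 4493 of all 12355 genes tested. The smallest p among them were those of Gspt1 (-0.15 ± 0.061), Nbas (-0.17 ± 0.069) and Smg6 (-0.18 ± 0.072), per the authors' deposited table.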

How the data were processed

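Nuclear RNA-seq of 4 libraries, 2 per group by sample title, was analysed from 1 table. Per the submitters' processing notes, limma, edgeR, HOMER 4.10, STAR 2.7.1a, Picard and SAMtools 1.10 were used on mm10; the library kit was a directional one, per the labels' protocols, but the tools' roles and the strand setting of the counting are not given in the sources used here. Per the file headers, the deposited values are a log2 fold change, a mean log2 level (read as log2 CPM with 0.5 counts added), a moderated t score, p-values and adjusted p-values, and other columns with the start, end and exon length in bases. The t score was used only to obtain the standard error (log2 fold change divided by t), and 95% intervals are 1.96 of these. Group CPM are geometric, from mean level and fold, and effective depth was about 45.7 M counts per library. Since counts per library were not analysed here, the authors' adjusted p (limma) was the test. Genes under a geometric mean of 10 counts were not tested. All members are named, and of each pathway list up to 3 genes with the smallest p, SR protein regulators and called genes. Gene members and lists were chosen with earlier results of these data known. Poison exons and introns were taken from row pairs with the same span and at least 50 expected counts per group. Calculations used Python 3.11.15, pandas 2.3.3 and scipy 1.17.1. The adjustment of p and the recovery of changed genes were tested on simulated data. The matching of row pairs and the intervals of counting error were not. Alternatives are listed in the closing section. Promoters on 1 chromosome were left out of motif shares.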

Additional observations from a re-analysis of the deposited data

How the results depend on the processing

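No paired analysis was possible because values per library were not analysed here, so a replicate block could be neither added nor taken out, and leaving out single libraries and other count tests were not run. The authors' model already held 1 term beyond the groups, and no label or header says whether that was a replicate block. Without a filter on low values and at a floor of 50 counts, the authors' adjusted p was kept and all 44 genes stayed in. The calls of the 44 could therefore not change, and Srsf12 and Hnrnpa1l2-ps2, added without the filter, were not called. With the longest transcript of each gene, the same 7 genes were called lower. Hnrnpd (adjusted p 0.0399) and Ptbp2 (0.0465) joined them, for 9 in all, when p was adjusted over the genes tested. That adjustment also applies to the centred, widened and trend-removed folds below, and by itself gave 1575 of all genes higher and 1817 lower, against 1393 and 1654 with the authors' adjustment. Centring on the median gene (-0.001) as well gave the same 9 genes. With each standard error multiplied by 2.08 (the robust SD of t), 2 genes were called lower (Mbnl1 and Mbnl2), and Celf2 had an adjusted p of 0.0706. At an adjusted p under 0.01, 5 were lower, without Hnrnpr and Srrm2. Folds centred on ribosomal protein genes (median -0.044) gave 2 genes higher (Srsf4, adjusted p 0.014, and Tra2b, 0.0445) and 5 lower, without Hnrnpr and Srrm2, and 2135 of all genes higher and 1451 lower, against 1575 and 1817 with the same adjustment and no centring. With the trend of fold with level removed, an alternative added after seeing the data, 7 were lower, with Ptbp2 in and Srrm2 out (adjusted p 0.0153 and 0.195), and the median of the 44 was -0.020. Genes that were not called changed sign under the ribosomal centring (Hnrnpdl 0.030, Hnrnph1 0.028, Hnrnph3 0.020, Hnrnpk 0.028, Hnrnpll 0.037, Hnrnpul1 0.002, Ptbp1 0.008, Srrm1 0.006, Srsf11 0.028, Srsf6 0.033, Srsf9 0.037) and with the trend removed (Hnrnpdl 0.030, Hnrnph1 0.035, Hnrnpk 0.062, Hnrnpll 0.011, Hnrnpul1 0.008, Ptbp1 0.041, Ptbp3 0.001, Srrm1 0.005, Srsf11 0.009, Srsf2 0.003, Srsf6 0.039, Srsf9 0.001), all close to 0.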
